A study of Rattus norvegicus with 6 samples.

Results

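Macrophages are phagocytes that settle in most tissues before birth, and in skeletal muscle they lie in the connective tissue between the fibres. The genes described here encode proteins by which such cells are commonly recognized, together with the 3 chains of complement C1q, which tissue macrophages make in large amounts. The list named 10 genes (*Cd68*, *Cd163*, *Csf1r*, *Mrc1*, *Cd14*, *C1qa*, *C1qb*, *C1qc*, *Clec4a3* and *Itgam*), and rows were found by matching their RefSeq transcripts to a RefSeq gene table. Of these, 8 had a row of values, 1 each, among 26299 features on the array, while *Cd163* (a haemoglobin scavenger receptor) and *Mrc1* (the mannose receptor) had no matched row and were not analysed here.

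The values come from 6 single-dye NimbleGen arrays, each hybridized with skeletal muscle RNA of a single male Wistar rat pup aged 1 day. Soleus and gastrocnemius had been combined for every animal. The 3 LBW (lower birth weight) pups were from percentiles 5 to 25 of birth weight, and the 3 ABW (average birth weight) pups, labelled newborn controls, were from percentiles 50 to 75 according to the protocol and 25 to 75 according to the sample characteristics. Neither group was treated, no litter is given, and p-values measure the spread between these 6 pups. A value is a normalized log2 brightness, so a difference of 1 is a 2-fold difference, and signals of different genes were not compared with each other because their probes differ.

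*Clec4a3*, a C-type lectin of the dendritic cell immunoreceptor family found on myeloid cells, was lower in every LBW pup than in every ABW pup, and its mean signal was 3.00-fold lower in LBW muscle. The other 7 genes, among them all 3 C1q chains, overlapped between the groups, and their log2 fold changes lay between -0.26 and 0.14. At a threshold of 1.5-fold or more with a p under 0.05 (here unadjusted and from limma, since the methods name no adjustment), 1 of the 8 genes was lower in LBW pups and 0 were higher. Of all 26299 features, 4.27% were called by the same rule, 1.89% lower and 2.38% higher, and of the 9627 features with a symbol 2.14% were called lower. After Benjamini-Hochberg adjustment over all features, 0 of the 8 genes and 0 features passed an adjusted p under 0.05 by limma, against 3250 features at an unadjusted p under 0.05. The unmoderated test named in the methods also left 0 features after adjustment.

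Several of these genes lie side by side in the rat genome. *C1qb*, *C1qc* and *C1qa* are neighbours on chromosome 5, and *Clec4a3* sits on chromosome 4 between its relatives *Clec4a1* and *Clec4a2*. Myeloid promoters are known to be bound by PU.1, the ETS factor encoded by *Spi1*, whose sites often contain the letters GAGGAA. The 250 bases upstream of the RefSeq transcript start are shown for *Clec4a3*, which fell, for its neighbour *Clec4a1*, whose groups overlapped, and for *C1qa* and *C1qb*, whose group means were close to each other. They are written 5′ to 3′ on the strand of the gene, from RefSeq with the build GRCr8, and capitals mark GAGGAA or its reverse complement TTCCTC. The *Clec4a3* window precedes an inner transcript start and lies within the span that RefSeq gives the gene, whereas the other 3 windows lie outside their genes.
Clec4a3, chr4:157886508-157886757, plus strand: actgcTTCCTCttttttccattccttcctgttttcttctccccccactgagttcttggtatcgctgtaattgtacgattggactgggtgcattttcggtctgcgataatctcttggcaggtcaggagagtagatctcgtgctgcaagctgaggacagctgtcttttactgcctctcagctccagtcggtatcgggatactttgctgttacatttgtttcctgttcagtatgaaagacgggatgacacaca
Clec4a1, chr4:157845561-157845810, plus strand: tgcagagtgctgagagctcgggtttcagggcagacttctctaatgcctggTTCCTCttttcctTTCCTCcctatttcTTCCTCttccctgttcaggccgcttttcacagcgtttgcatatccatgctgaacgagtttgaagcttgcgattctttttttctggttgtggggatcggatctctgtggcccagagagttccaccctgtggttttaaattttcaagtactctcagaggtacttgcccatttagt
C1qa, chr5:154419934-154420183, minus strand: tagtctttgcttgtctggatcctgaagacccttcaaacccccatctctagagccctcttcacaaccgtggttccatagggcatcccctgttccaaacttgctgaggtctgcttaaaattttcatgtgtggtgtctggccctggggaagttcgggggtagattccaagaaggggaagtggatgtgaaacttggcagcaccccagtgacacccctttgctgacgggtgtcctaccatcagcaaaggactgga
C1qb, chr5:154407828-154408077, minus strand: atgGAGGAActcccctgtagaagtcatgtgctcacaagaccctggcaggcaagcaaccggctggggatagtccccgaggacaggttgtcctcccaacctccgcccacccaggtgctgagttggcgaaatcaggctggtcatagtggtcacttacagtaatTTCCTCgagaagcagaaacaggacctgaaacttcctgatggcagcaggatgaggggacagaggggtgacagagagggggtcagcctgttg
The motif occurred once in the *Clec4a3* window, at 3 places in that of *Clec4a1*, at 2 in that of *C1qb* and at none in that of *C1qa*. A window was at hand for 7 of the 8 genes with a row (not *C1qc*), and 6 of the 7 held the motif on either strand, as did 23.3% of all 33469 upstream windows of this length. These matches describe letters and not binding, and other forms of the site were not sought.

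*Clec4a3* (NM_001005891) entered the list with its fall already known, so its values are a description. Its log2 signal was 7.91, 7.99 and 6.92 in LBW 1, 2 and 3, compared to 8.55, 9.33 and 9.68 in ABW 1, 2 and 3. The pups nearest each other across the groups were LBW 2 and ABW 1, and LBW 3 lay furthest down. LBW pups had a mean of 7.60 ± 0.60 and ABW pups one of 9.19 ± 0.58 (each SD, n = 3). This is a log2 fold change of -1.58 with an SE of 0.39 and a 95% interval of -2.51 to -0.66 (limma, adjusted p = 0.272). Only 8 features of the whole array had a larger fall, whereas by p-value it stood at place 516, since the pups of each group differed among themselves. An exact permutation test cannot give a 2-sided p under 0.1 with 3 pups against 3, and it gave 0.1 here. With any 1 pup left out, the log2 fold change stayed between -1.90 and -1.24 and past the unadjusted threshold. Because *Clec4a3* has close relatives, part of the signal could come from their transcripts, which was not tested.

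**Figure D1:**
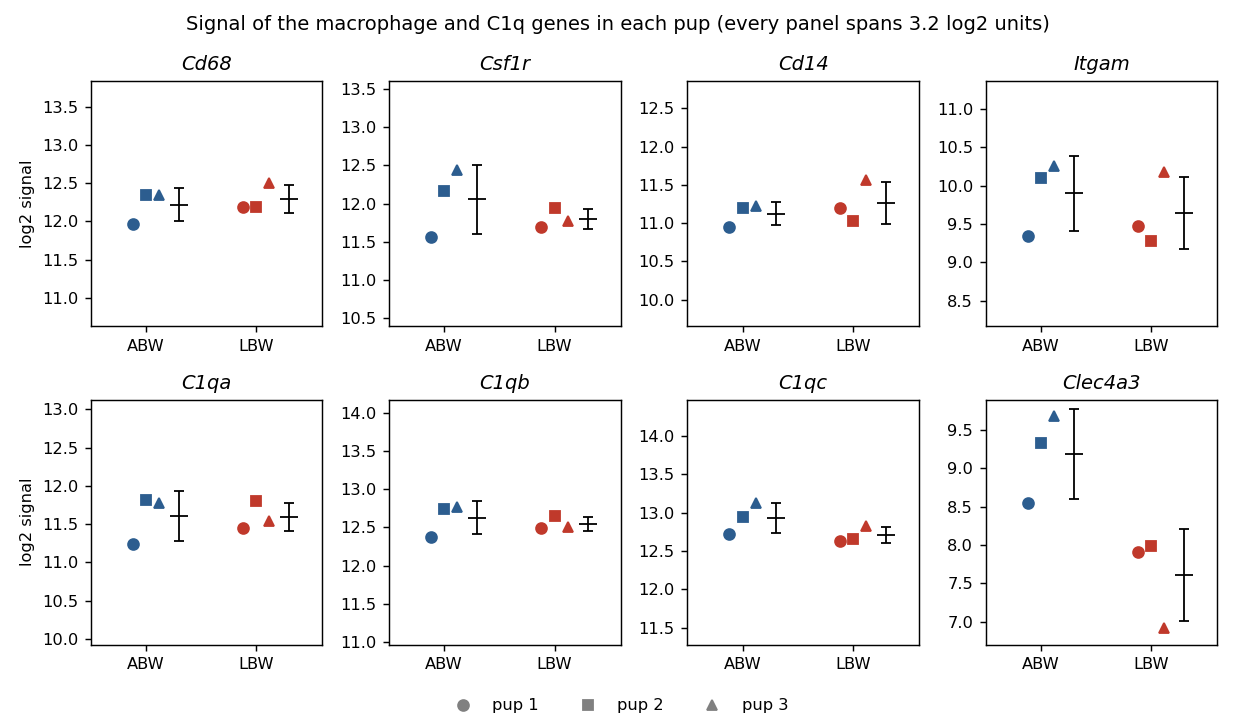
Log2 signal of the 8 genes with a row in each of the 3 ABW (blue) and 3 LBW (red) pups, with the mean ± SD of each group in black and the same span of log2 units in every panel. *Clec4a3* is the gene whose LBW values (6.92 to 7.99) all lie below its ABW values (8.55 to 9.68), and the groups overlap in the other 7 panels.

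C1q binds antibody complexes and apoptotic cells and starts the classical complement pathway, and each C1q molecule holds A, B and C chains. *C1qa* (NM_001008515), the A chain, was at 11.44, 11.80 and 11.55 in LBW and at 11.24, 11.82 and 11.77 in ABW pups. *C1qb* (NM_019262), the B chain, was at 12.49, 12.65 and 12.50 in LBW and at 12.38, 12.74 and 12.77 in ABW pups. In both genes the LBW values lay within the range of the ABW values. *C1qc* (NM_001008524), the C chain, was at 12.64, 12.65 and 12.83 in LBW and at 12.72, 12.94 and 13.12 in ABW pups. Here LBW 3 lay above ABW 1, so the groups overlapped as well.

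The log2 fold change of *C1qa* was -0.01 (95% interval -0.45 to 0.43, adjusted p = 0.985 by limma). For *C1qb* it was -0.08 (95% interval -0.39 to 0.23, adjusted p = 0.844 by limma). The largest difference of the 3 chains was that of *C1qc*, with -0.22 (95% interval -0.53 to 0.08, adjusted p = 0.529 by limma). None of these intervals reached a fall of 1.5-fold, which is -0.58 on the log2 scale. All 3 chains were lowest in ABW 1 among the ABW pups. The mean deviation of the 3 chains from their ABW means was -0.28 in ABW 1, 0.11 in ABW 2 and 0.16 in ABW 3, compared to -0.20, -0.02 and -0.10 in LBW 1, 2 and 3. The spread among the ABW pups was therefore wider than the difference between the groups.

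**Figure D2:**
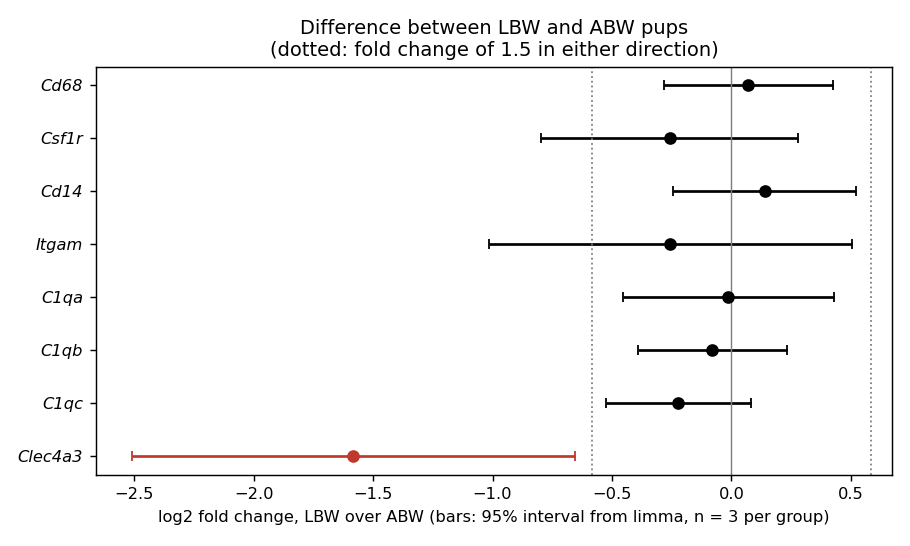
Log2 fold change of LBW over ABW pups for the 8 genes (points) with the 95% interval from limma (bars, n = 3 per group), with dotted lines at a fold change of 1.5. The interval of *Clec4a3* runs from -2.51 to -0.66, and the intervals of the other 7 genes include 0 and run no lower than -1.01.

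*Cd68* (NM_001031638) encodes a glycoprotein of macrophage lysosomes and is a general marker of phagocytes. Its signal was 12.19, 12.18 and 12.50 in LBW and 11.97, 12.34 and 12.35 in ABW pups. The highest value was that of LBW 3 and the lowest that of ABW 1. The log2 fold change was 0.07 (95% interval -0.28 to 0.42, adjusted p = 0.881 by limma), and the LBW and ABW means differed by less than the SD of either group.

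*Csf1r* (NM_001029901) is the receptor for Csf1 and Il34, on which most tissue macrophages depend for survival. It was at 11.69, 11.94 and 11.77 in LBW pups, a narrow range, and at 11.56, 12.17 and 12.44 in ABW pups. ABW 1 lay below all LBW pups, while ABW 2 and ABW 3 lay above them. The log2 fold change of -0.26 (95% interval -0.80 to 0.28, adjusted p = 0.686 by limma) moved with single ABW pups. Without ABW 1 it was -0.51, with an unadjusted p of 0.0118 by limma and short of a 1.5-fold change. Without ABW 3 it was -0.07, with an unadjusted p of 0.756 by limma.

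*Cd14* (NM_021744), the co-receptor that hands bacterial lipopolysaccharide to Toll-like receptor 4, was at 11.20, 11.03 and 11.56 in LBW and at 10.95, 11.19 and 11.23 in ABW pups. *Itgam* (NM_012711), the integrin chain of complement receptor 3 that monocytes and neutrophils also carry, was at 9.48, 9.28 and 10.18 in LBW and at 9.35, 10.10 and 10.25 in ABW pups. Both genes were highest among the LBW pups in LBW 3. The log2 fold change of *Cd14* was 0.14 (95% interval -0.24 to 0.52, adjusted p = 0.767 by limma). That of *Itgam* was -0.26 (95% interval -1.01 to 0.50, adjusted p = 0.788 by limma), with the widest interval of the 7 genes.

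Over the 8 genes, 6 had a log2 fold change below 0, as had 55.6% of all features, and the median was -0.15 compared to -0.02 over all features. Without *Clec4a3* the median was -0.08, with 5 of 7 below 0. A gene called in neither direction may still differ, and the intervals give how far. For 5 of the 7 genes (all but *Csf1r* and *Itgam*) the 95% interval did not reach a fall of 1.5-fold, and for all 7 it did not reach -1.58, the estimate for *Clec4a3*. The interval of *Clec4a3* itself ran up to -0.66 and overlapped those of *Csf1r* and *Itgam*, and the difference between genes was not tested. Groups that did not overlap, with LBW lower, were found in 1 of the 8 genes and in 10.1% of all features. With LBW higher they were found in 0 of the 8 and in 7.27% of all features, and in either direction in 17.4%.

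ABW 1 was the lowest ABW pup in all 8 genes, whereas it was the lowest in 40.5% of all features. In 5 of the 8 it lay below every LBW pup. Without ABW 1, 7 of the 8 genes had a log2 fold change below 0 and the median of the 7 genes other than *Clec4a3* was -0.20. *C1qc* was then at -0.32 with an unadjusted p of 0.0367 by limma, and *Itgam* at -0.53 with 0.110. Leaving out ABW 3 in its place moved both the other way, *C1qc* to -0.13 (unadjusted p 0.354 by limma) and *Itgam* to -0.08 (unadjusted p 0.829 by limma), and *Itgam* was at -0.07 without LBW 2 and at -0.52 without LBW 3. Without ABW 1, *Clec4a3* was at -1.90 and was the single call among the 8, where 2.79% of all features were called lower. Leaving out that pup, 4 of the 7 intervals excluded a fall of 1.5-fold, and none of the 7 reached the estimate that *Clec4a3* then had.

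Set against the other genes in the same animal, *Clec4a3* lay low in each LBW pup. Since its fall was known when it was listed, this is a description and not a test. Its deviation from its own ABW mean was -1.28, -1.20 and -2.27 in LBW 1, 2 and 3, while the mean deviation of the other 7 genes was -0.19, -0.13 and 0.06. In ABW 1, 2 and 3 the deviation of *Clec4a3* was -0.64, 0.15 and 0.50 and that of the 7 genes -0.33, 0.12 and 0.21. The 2 quantities had the same sign in each ABW pup, and in LBW 3 they lay furthest apart. Their difference was -1.09, -1.06 and -2.33 in the LBW pups and -0.31, 0.03 and 0.29 in the ABW pups. In RNA from whole muscle, fewer macrophages and less RNA per macrophage cannot be told apart. None of the other 7 genes was called lower, but with 1.89% of all features called lower, 0 calls among 7 genes carry little information. Their estimates lay between -0.26 and 0.14. The intervals of *Csf1r* and *Itgam* reached a fall of 1.5-fold. Whether a subset of macrophages rich in *Clec4a3* was fewer was not tested.

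**Figure D3:**
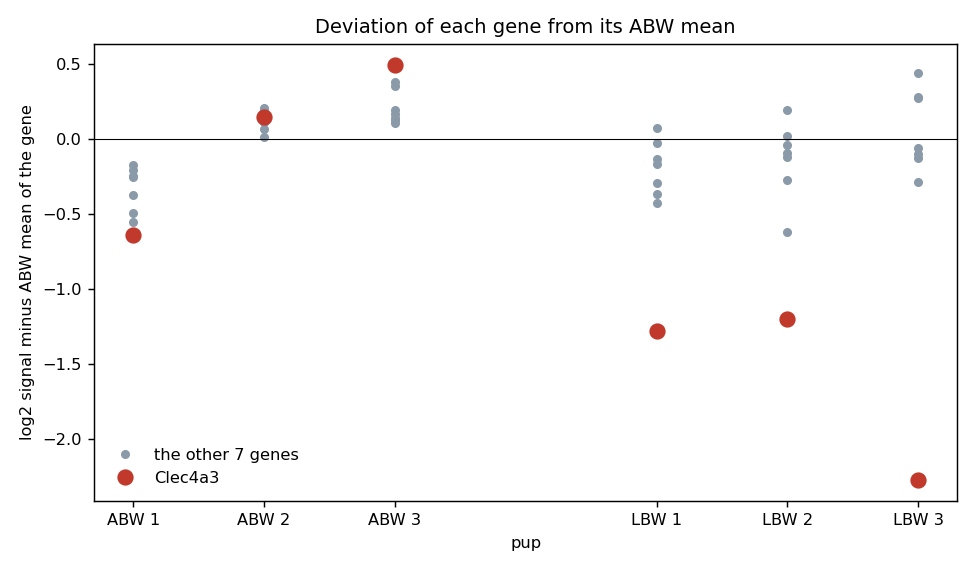
Log2 signal of each of the 8 genes minus the mean of that gene in ABW pups, for each pup, with *Clec4a3* as large red points and the other 7 genes as small grey points. In LBW pups the grey points lie between -0.62 and 0.44 and the red points between -2.27 and -1.20, and in ABW 1 all points lie below 0.

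Other genes of macrophages and monocytes were taken from a list of 33, of which 22 had a row. By the same rule 2 were lower in LBW pups and 0 higher, where 1.89% of all features were called lower. The median log2 fold change was -0.18, and 16 of the 22 lay below 0, as did 55.6% of all features. The 2 calls were *Ccr2*, the chemokine receptor of inflammatory monocytes (-0.81, adjusted p = 0.326 by limma), and *Cybb*, a subunit of the phagocyte NADPH oxidase (-0.63, adjusted p = 0.379 by limma). *Ccr2* was at 7.71, 8.37 and 8.61 in LBW and at 8.84, 8.87 and 9.42 in ABW pups, without overlap. *Cybb* was at 10.03, 9.94 and 9.29 in LBW and at 10.02, 10.49 and 10.63 in ABW pups, with LBW 1 just above ABW 1. The call of *Ccr2* was lost without LBW 1 (-0.56) or ABW 3, and that of *Cybb* without LBW 3, ABW 2 or ABW 3. The number called lower was 0 without ABW 3, 1 without LBW 1 or ABW 2, and 4 without ABW 1, and it was 0 by the unmoderated test of the methods. None of the 22 fell as far as *Clec4a3*. Groups that did not overlap, with LBW lower, were found in 2 of the 22, *Ccr2* and *Pf4* (-0.21), and in 10.1% of all features. *Hpgds* (-0.58) fell just short of a 1.5-fold change, and *Adgre1* was at -0.51 with overlap. *Spi1*, which encodes PU.1, was 1 of the 6 genes with a log2 fold change above 0 and had the highest of the 22 (0.26). Its signal was 7.89, 7.41 and 8.45 in LBW and 7.35, 7.89 and 7.74 in ABW pups, with overlap. The mean deviation over the 22 genes was -0.21, -0.26 and -0.06 in LBW 1, 2 and 3 and -0.21, 0.07 and 0.14 in ABW 1, 2 and 3. ABW 1 was the lowest ABW pup in 17 of them.

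Relatives of *Clec4a3* were taken from a list of 29 C-type lectin genes, of which 12 had a row. In it 1 was called lower and 0 higher (median -0.20), where 1.89% of all features were called lower. The call was *Clec2g*, a lectin-like gene related to ligands of natural killer receptors (-0.60, adjusted p = 0.377 by limma), which was lost without LBW 2 or any ABW pup. *Clec10a*, the galactose-binding lectin of macrophages, was at 11.22, 11.51 and 11.01 in LBW and 11.33, 12.00 and 11.97 in ABW pups (-0.52, adjusted p = 0.410 by limma). The genes that lie near *Clec4a3* on chromosome 4 were not called. *Clec4a1* was at 10.23, 10.45 and 10.46 in LBW and at 9.94, 10.47 and 10.76 in ABW pups, a log2 fold change of -0.01 (95% interval -0.52 to 0.50). *Clec4a2* varied little, between 5.72 and 5.91 over the 6 pups. *Clec4a* varied more within the groups, at 6.95, 6.05 and 7.79 in LBW and 6.14, 7.76 and 8.10 in ABW pups, with a log2 fold change of -0.40 and a 95% interval of -1.90 to 1.10 that includes the estimate for *Clec4a3*. *Clec4b2*, *Clec4d* and *Clec4e* had log2 fold changes between -0.21 and 0.02. How far the dimmer of these rows lie above background is unknown, as no detection call came with the values used here.

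**Figure D4:**
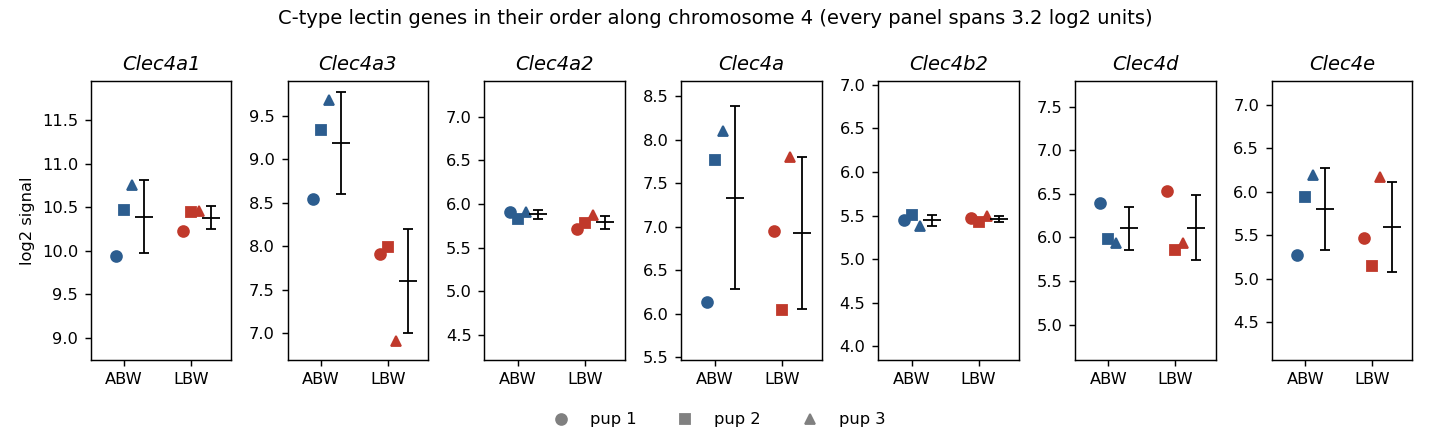
Log2 signal of 7 C-type lectin genes in each ABW (blue) and LBW (red) pup, in their order along chromosome 4 and with the same span in every panel, with the mean ± SD of each group in black. *Clec4a3* is the gene of the 7 whose groups do not overlap.

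The complement list held 40 genes besides the C1q chains, 30 of them with a row. In it 1 was called lower and 0 higher (median -0.05), where 1.89% of all features were called lower. The call was *C3ar1*, the receptor for the C3a fragment on myeloid cells, at 10.84, 10.57 and 11.51 in LBW and 11.37, 11.96 and 11.66 in ABW pups (-0.69, adjusted p = 0.377 by limma). It was lost without LBW 1, LBW 2, ABW 2 or ABW 3. *Cd46*, which encodes a complement regulatory protein, was at -0.67 (adjusted p = 0.431 by limma). *C1s*, a protease of the C1 complex, was at -0.20 and *Serping1*, the C1 inhibitor, at -0.08. The number called lower was 4 without ABW 1, 2 without LBW 3 and 0 without LBW 1, LBW 2, ABW 2 or ABW 3.

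Genes around *Csf1r*, among them other cytokine receptors and transcription factors, were taken from a list of 16, of which 13 had a row. In it 1 was called higher and 0 lower (median -0.11), where 2.38% of all features were called higher. *Runx1*, a transcription factor of blood cell development that is also active in muscle and cartilage, was at 10.27, 10.55 and 10.46 in LBW and at 9.85, 9.92 and 9.49 in ABW pups, a rise of 0.68 (adjusted p = 0.25 by limma) that was lost only without ABW 3 among the single pups. Of the ligands of Csf1r, *Csf1* had a log2 fold change of -0.11 and *Il34* of -0.11. *Csf2rb*, the shared chain of the receptors for GM-CSF and related cytokines, was at -0.44 (adjusted p = 0.395 by limma). The list around *Cd14* and the Toll-like receptors held 17 genes, of which 7 had a row. In it 1 was called lower and 0 higher (median -0.29), where 1.89% of all features were called lower. *Tlr6* (-0.67, adjusted p = 0.394 by limma) lost its call without LBW 2, ABW 2 or ABW 3. *Tlr4*, the partner of Cd14, was at 9.21, 8.86 and 9.16 in LBW and 9.52, 9.31 and 9.75 in ABW pups, so all LBW values were lower, at -0.45 and short of the 1.5-fold threshold.

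Of 12 genes around the beta2 integrins, 6 had a row and 0 were called (median 0.07), where 4.27% of all features were called in either direction. The largest differences were those of *Itgal* (0.42) and *Itgad* (0.26), alpha chains related to Itgam. Of 15 scavenger receptor and haem genes, 12 had a row and 0 were called (median -0.00), with *Hp* (haptoglobin, 0.45) and *Cd5l* (0.28) furthest from 0. Of 12 genes on a general leukocyte list, not all of them shared by every leukocyte, 9 had a row and 0 were called (median -0.08). *Vav1* (-0.56) and *Cd48* (-0.18) differed most. The mean deviation of these 9 genes was -0.11, -0.13 and -0.07 in LBW 1, 2 and 3, within the ABW range of -0.17 to 0.18.

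**Figure D5:**
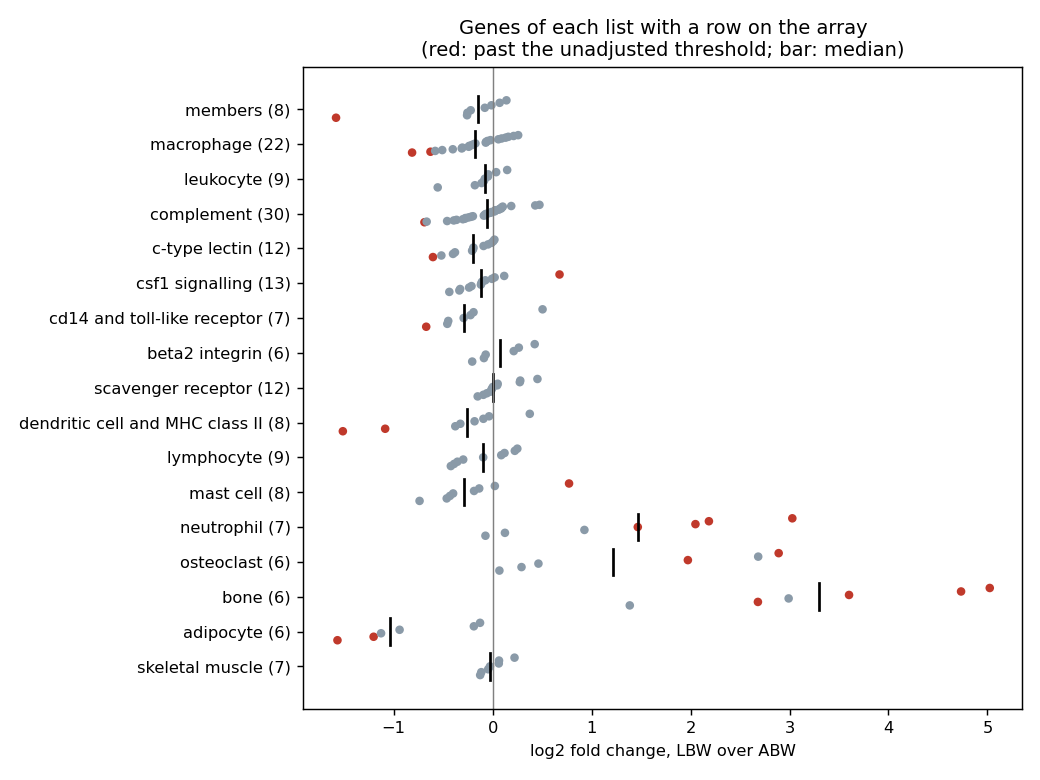
Log2 fold change of LBW over ABW pups for every gene with a row in the 8 described genes and in 16 lists, with the number of genes in brackets, genes past the unadjusted threshold in red and the median of each list as a black bar. The macrophage list has its median at -0.18, and the neutrophil, osteoclast and bone lists have theirs at 1.47, 1.22 and 3.30.

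Some markers of other cells that share these genes were called as well, where 2.38% of all features were called higher. Of 7 neutrophil genes with a row (12 listed), 4 were higher in LBW pups, namely *Mmp8* (3.03), *S100a9* (2.19), *S100a8* (2.05) and *Retnlg* (1.47), with a list median of 1.47, and neutrophils carry *Itgam* too. The mean level of the 7 genes was between 8.33 and 9.42 in LBW and between 7.52 and 7.75 in ABW pups. Of 6 osteoclast genes with a row (9 listed), 2 were higher, *Mmp9* (2.89) and *Acp5* (1.97), and with 1 pup left out both were called only without LBW 2. The other 4 osteoclast genes were not called, among them *Ctsk* (0.29) and *Calcr* (0.07). Osteoclasts, which arise from *Csf1r*-dependent precursors and carry *Cd68*, gave a mean deviation of 1.504, 0.11 and 2.57 in LBW 1, 2 and 3. Bone genes behaved alike, with 4 of 6 called higher (*Spp1*, *Ibsp*, *Bglap* and *Alpl*, the last lost without LBW 1) and deviations of 4.17, 0.90 and 5.14. *Cd68*, *Cd14*, *Itgam* and *C1qc* were highest of the LBW pups in LBW 3, the pup with the highest mean of the osteoclast and of the bone list, and the part of these cells in the values of the 4 genes was not tested.

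Among genes of dendritic cells and MHC class II, 8 of 12 had a row, with a median log2 fold change of -0.25. By the rule that called 1.89% of all features lower and 2.38% higher, 2 were lower, the MHC class II genes *RT1-Db1* (-1.51) and *RT1-Bb* (-1.09). The first call was lost without ABW 2 or ABW 3, and the second without LBW 3, ABW 2 or ABW 3. Both were lowest in LBW 3, as was *Clec4a3*. *Cd74*, the invariant chain that accompanies class II molecules, was between 12.53 and 12.69 in all 6 pups. In the adipocyte list, 6 of 7 had a row and 2 were lower, *Lep* (-1.57, with 1 pup left out called only without ABW 1) and *Pparg* (-1.20), and the mean deviation was -0.59, -0.62 and -1.37 in LBW 1, 2 and 3 and -0.64, 0.40 and 0.24 in ABW 1, 2 and 3. ABW 1 was thus low and LBW 3 lowest in this list as well, and its relation to *Clec4a3* was not tested. Mast cell genes (8 of 10 with a row) had 1 call, *Mcpt1* (0.77), and a median of -0.29, with *Ms4a2* at -0.74. Lymphocyte (9 of 15), erythroid (5 of 9), fibroblast (5 of 7), endothelial (3 of 7) and skeletal muscle genes (7 of 9) had 0 calls and medians of -0.10, -0.07, -0.14, -0.12 and -0.03. The largest differences in these lists were those of *Cd5* (-0.42) and *Cd3d* (-0.39), *Slc4a1* (-0.87) and *Alas2* (-0.22), *Fap* (-0.23) and *Col1a2* (-0.17), *Emcn* (-0.29) and *Kdr* (-0.12), and *Des* (0.22) and *Tnnt3* (-0.13). The muscle genes *Acta1* (15.15 to 15.41) and *Ckm* (14.83 to 15.06) varied little between pups.

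The genes whose values over the 6 pups were most like those of *Clec4a3* were sought among 9627 symbols, by the root mean square difference after each gene was centred on its own mean. Among the closest were *Esr1* (the oestrogen receptor alpha, 0.27), *Rxfp1* (the relaxin receptor, 0.32) and *Hpgd* (a prostaglandin-degrading enzyme, 0.33). So was *Mnda* (myeloid cell nuclear differentiation antigen, an interferon-inducible nuclear protein, 0.33). *Mnda* was at 7.63, 7.75 and 7.52 in LBW and 8.37, 9.41 and 10.05 in ABW pups, without overlap. Its log2 fold change was -1.64 (adjusted p = 0.269 by limma), and its relation to macrophages was not tested. *Esr1* was at 9.03, 8.80 and 8.08 in LBW and 9.497, 9.81 and 10.18 in ABW pups, lowest in LBW 3 and highest in ABW 3 as *Clec4a3* was. Among the genes closest to the mean of the C1q chains were *Fam98a* (0.04), *Bcap31* (0.04), *Tgoln2* (0.05) and *Mettl21cl1* (0.05), none of them on the macrophage list. These measures rest on 6 values each and are given as a description.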

How the data were processed

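The authors hybridized 6 single-colour (Cy3) NimbleGen rat arrays, 1 per pup, with 5 probes per transcript, and deposited log2 values, 1 for each of 26419 rows, which their own R scripts and Bioconductor had normalized. RMA is the tool named in the submitters' processing notes, and its settings are not given in the sources used here. The deposited log2 values ran from 4.58 to 15.49 with array medians between 8.70 and 8.76, and carry no detection call. Arrays have no count depth, so their number limits the precision.

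Of the rows, 9747 matched a symbol in a RefSeq table (GRCr8). Rows of a symbol were averaged, which left 26299 features. LBW and ABW pups were compared in R 4.3.3 by the moderated test of limma 3.58.1 (2-sided, Benjamini-Hochberg over all features), and single genes by exact permutation with scipy 1.17.1. A call means 1.5-fold or more with an unadjusted p under 0.05. The methods give the same limits without saying whether p was adjusted. The fit was tested on simulated data. The 8 genes and all lists were chosen with earlier results of these data known. Named are the members, up to 4 calls per list (or the 2 largest differences where fewer than 2 were called), and the 5 most alike genes, of which 1 for each pattern is not reported here. Others were named afterwards, for their place in the genome or pathway. The alternatives were the replicate block, leaving out each pup, quantile normalization, median centring and a filter on the dimmest 25% of features. Further ones were an intensity trend, an unmoderated 2-sample t-test (named in the methods, though not for the arrays) and rows fitted singly.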

Additional observations from a re-analysis of the deposited data

How the results depend on the processing

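The fall of *Clec4a3* was called under all 13 alternatives (log2 fold change -1.90 to -1.24), with adjusted p-values between 0.186 and 0.629, and it was the only call among the 8 genes in each of them. No other gene of the 8 was called in any of these fits. Differences near 0 changed sign without single pups: with 1 pup left out *Cd68* ranged from -0.0537 to 0.13, *Cd14* from -0.0105 to 0.26 and *C1qa* from -0.20 to 0.0919. Of all features, 584 were called by the unmoderated t-test against 1124 by limma. With 1 pup left out, limma called between 798 (without LBW 1) and 1546 (without LBW 2). After adjustment 0 to 125 features passed with 1 pup left out, the 125 without LBW 2, and the cause was not tested. The unmoderated t-test, which the methods do not name for the arrays, called 0 genes lower in the lists of other genes. The lower calls named in the macrophage, complement, C-type lectin, Toll-like receptor, MHC class II and adipocyte lists were thus lost. Of the higher calls this test kept 0 of 2 osteoclast, 2 of 4 bone (not *Bglap* or *Alpl*) and 3 of 4 neutrophil genes (not *Retnlg*), and *Runx1* and *Mcpt1*. Whether pups with the same replicate number shared a litter or batch is unknown. The correlations of their deviations were 0.087, 0.104 and 0.055, which cannot decide this. With the replicate block 1230 features and 1 of the 8 genes were called. How far dim signals lie above background is unknown.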
